A study of Homo sapiens with 4 samples.

Results

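A list of 39 genes of blood coagulation, fibrinolysis and related plasma proteins was followed in HuH7 cells with and without knockdown of MKL1 and MKL2. The genes were given by name, and each was read from its single-gene probe, or from the one with the highest mean over the arrays. Of the 39, 38 were measured among 18417 genes tested, and F2RL1, for which the platform annotation lists no single-gene probe, was not analysed here. HuH7 is an established human hepatocellular carcinoma cell line, and the series holds 2 arrays of cells that stably express shRNA against MKL1 and MKL2 and 2 arrays of cells that stably express a control shRNA. Both kinds of cells were infected with virus made from the pLKO.1 vector, selected with puromycin for 7 days and kept in medium with 10% fetal bovine serum below passage 10. The labels name no hairpin sequence and give each sample as a biological replicate, without saying whether the replicates came from separate infections, so the p-values measure the spread between these samples, which may be technical. Values are log2 expression values as deposited, differences are MKL1/2 shRNA minus control shRNA, and a gene was called at a limma p of 0.05 adjusted over all genes tested (Benjamini-Hochberg).

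Hepatocytes make most of the proteins of the clotting cascade and release them as inactive precursors. Tissue factor and factor VII start clotting from outside the vessel, prekallikrein and factors XI and XII form the contact system, and both routes meet at factor X, which turns prothrombin into thrombin, the protease that makes fibrin from fibrinogen. Plasmin, cut from plasminogen by urokinase or tissue plasminogen activator, dissolves fibrin, and protein C, protein S and the tissue factor pathway inhibitors hold the cascade in check. MKL1 and MKL2, now named MRTFA and MRTFB, are actin-regulated coactivators of serum response factor.

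The one probe that lists MRTFA read 6.81 and 6.91 in MKL1/2 shRNA cells, against 7.77 and 7.80 in control cells (limma adjusted p = 0.0404), and it also lists RBM15. MRTFB read 6.84 and 7.11 in MKL1/2 shRNA cells, against 7.20 and 7.22 in control cells, and was not called (limma adjusted p = 0.448). Over all genes the log2 difference between the MKL1/2 shRNA arrays had an SD of 0.265, larger than the 0.154 between the control arrays. The 10 hepatocyte markers measured, among them ALB, AFP and TTR, lay between 8.68 and 12.58 on the 4 arrays, whereas 6 of 9 endothelial and 5 of 6 megakaryocyte markers lay below the median of all probes on every array. So did 5 of 6 macrophage and 4 of 6 stellate cell and fibroblast markers. Of the exceptions, CD68 read 9.42 and 8.46 in MKL1/2 shRNA cells, against 8.74 and 8.91 in control cells. LUM read 7.13 and 8.60 in MKL1/2 shRNA cells, against 8.05 and 8.01 in control cells. The table holds bulk RNA, so fewer cells of a type and less RNA per cell cannot be told apart.

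The promoter windows of 4 listed genes are given here as RefSeq has them on GRCh38.p14, from 250 bases before to 50 after the gene start, 5′ to 3′ on the gene's strand. HABP2 and KLKB1 are shown because they were called, as was FGL1, which has no window here, F11 because it is the chromosomal neighbour of KLKB1, and TFPI2 because its difference was the most negative of the list. The windows lie at chr10:113550581-113550880 (plus strand) for HABP2, chr4:186227257-186227556 (plus strand) for KLKB1, chr4:186265939-186266238 (plus strand) for F11 and chr7:93890704-93891003 (minus strand) for TFPI2. Capitals mark the letters GTTAAT, a core of sites for the liver factor HNF1, and CAAAGTC, a core of sites for the liver factor HNF4. They also mark TGANTCA, which takes in the AP-1 site TGA(C/G)TCA but allows any middle base. Each was searched on both strands.
HABP2: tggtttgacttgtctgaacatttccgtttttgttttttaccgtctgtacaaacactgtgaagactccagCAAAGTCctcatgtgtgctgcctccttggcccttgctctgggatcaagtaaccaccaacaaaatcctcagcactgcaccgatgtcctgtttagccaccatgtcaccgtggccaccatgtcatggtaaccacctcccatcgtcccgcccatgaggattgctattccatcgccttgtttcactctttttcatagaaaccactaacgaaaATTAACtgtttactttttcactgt
KLKB1: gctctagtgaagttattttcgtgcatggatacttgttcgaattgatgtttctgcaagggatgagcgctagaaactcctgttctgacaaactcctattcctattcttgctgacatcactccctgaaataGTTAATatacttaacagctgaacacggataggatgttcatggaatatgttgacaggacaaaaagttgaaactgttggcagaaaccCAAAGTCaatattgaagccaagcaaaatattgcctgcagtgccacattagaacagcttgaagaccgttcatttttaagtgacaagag
F11: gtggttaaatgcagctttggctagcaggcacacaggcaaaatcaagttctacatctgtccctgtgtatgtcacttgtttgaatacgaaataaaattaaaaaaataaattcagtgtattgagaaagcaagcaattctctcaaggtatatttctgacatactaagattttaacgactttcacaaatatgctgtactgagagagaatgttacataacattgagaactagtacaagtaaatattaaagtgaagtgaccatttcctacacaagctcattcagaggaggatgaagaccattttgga
TFPI2: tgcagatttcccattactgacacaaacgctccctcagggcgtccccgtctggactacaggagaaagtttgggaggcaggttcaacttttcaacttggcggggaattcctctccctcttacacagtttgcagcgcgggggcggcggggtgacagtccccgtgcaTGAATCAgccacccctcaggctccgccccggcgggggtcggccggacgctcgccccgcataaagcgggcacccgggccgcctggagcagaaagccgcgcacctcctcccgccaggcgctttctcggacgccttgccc

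The windows of HABP2 and KLKB1 hold the HNF1 core and the HNF4 core, and that of F11 holds none of the motifs searched. That of TFPI2 holds TGAATCA, a match to the AP-1 letters TGANTCA whose middle base is neither C nor G. Windows were found for 33 of the 39 listed genes, and where a gene had several starts the first in the table was used. For HABP2 the table has a second start, whose window holds the HNF1 core and a match to TGANTCA. The HNF1 core was in 10 of the 33 windows, against 5.13% of the 14239 windows of genes tested, and the HNF4 core was in 7 of 33, against 2.84%. Genes that carry the HNF1 core include FGA, FGB, F2 and PROC, none of which was called. Of the 33 listed genes with a window, which leave out the called gene FGL1, HABP2 and KLKB1 alone held both cores in the window used, which 0.288% of all windows have; this pair was picked out after its values were seen. A CArG box, the site of serum response factor, was in none of the 33 windows and in 1.22% of all windows. The TEAD letters GGAATG were in 8 of 33 windows against 11.6% of all, the AP-1 letters in 3 against 5.58%, and the TATA letters TATAAA in 3 against 9.0%. Each is a match of letters in a window, without a measurement of binding.

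FGL1, HABP2 and KLKB1 rose in MKL1/2 shRNA cells, and no listed gene fell past the test. These were 3 of 38 measured genes called higher, where 0.0814% of all genes tested were called higher, and 0 of 38 called lower by limma, where 0.0923% were. At an unadjusted limma p under 0.05, 12 of the 38 were higher, which is 31.6% of the list against 6.25% of all genes, and 1 was lower, against 8.04%. The groups did not overlap for 19 genes that were higher and for 4 that were lower, against 22.5% and 23.0% of all genes. The median difference of the 38 genes was 0.18, against 0.01 for all genes tested, and was 0.04 without MKL1/2 shRNA replicate 1 and 0.25 without replicate 2. The list was drawn up with results of these data known, so its counts describe these genes and are not a test of the pathway. With an array left out, 1 group is a single array, assumed to vary like the other group, and the residual spread comes from the 2 arrays of that other group alone. Without either control array, limma called 0 of all 18417 genes tested, and so no listed gene. The differences of the 3 genes moved little, lying between 2.19 and 2.22 for FGL1, 1.47 and 1.48 for HABP2 and 1.13 and 1.22 for KLKB1, with adjusted p-values between 0.382 and 0.696. At an unadjusted limma p under 0.05, 5 listed genes were higher and 1 lower without control replicate 1, against 2.25% and 2.45% of all genes, and 8 were higher and 1 lower without control replicate 2, against 2.95% and 3.67%. Without an MKL1/2 shRNA array the spread is that of the closer control pair, and calls increased over all genes. Without MKL1/2 shRNA replicate 1, where 1.62% of all genes were called, 6 listed genes passed, the 3 genes with PLAU higher and with TFPI2 and F2 lower. Without MKL1/2 shRNA replicate 2, where 4.24% of all genes were called, 12 passed, the 3 genes with PLAU, F11, KNG1, F13B, PLG, ITIH1, ITIH3 and AHSG higher and with TFPI2 lower.

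**Figure D1:**
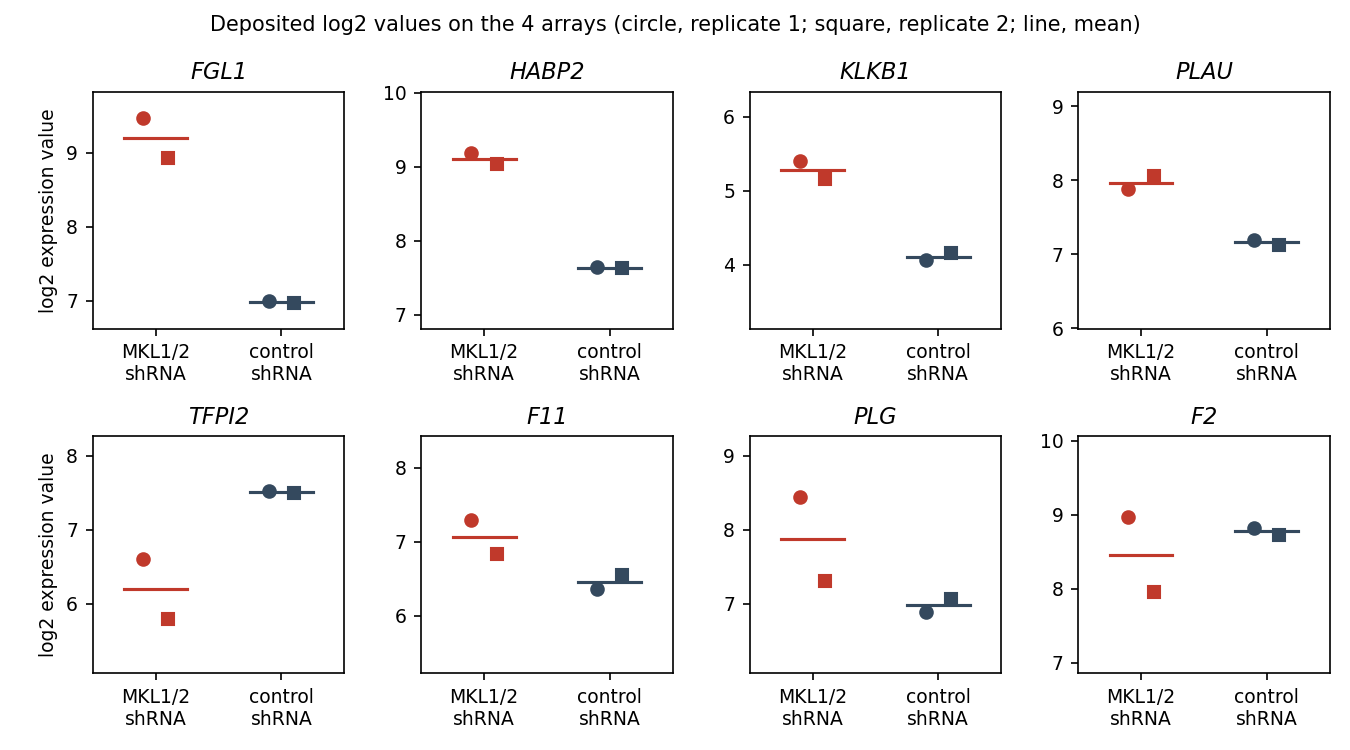
Deposited log2 values of 8 listed genes on the 4 arrays, with MKL1/2 shRNA left and control shRNA right in each panel. Circles are replicate 1, squares replicate 2, lines the mean of 2, and every panel spans the same number of log2 units. The control values lie close together in each panel, FGL1, HABP2 and KLKB1 are well apart from them, and PLG and F2 differ most between the MKL1/2 shRNA arrays.

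The chains of fibrinogen itself did not move with the fibrinogen-like gene. FGL1 encodes a liver-secreted protein that has a fibrinogen-like domain and is not one of the fibrinogen chains. It read 9.46 and 8.92 in MKL1/2 shRNA cells, against 6.999 and 6.98 in control cells. Both knockdown arrays stood far above both controls, a difference of 2.21 (SE 0.18, limma adjusted p = 0.0193) or 4.61-fold. FGA, the alpha chain, read 11.18 and 11.42 in MKL1/2 shRNA cells, against 11.40 and 11.40 in control cells. FGB, the beta chain, read 11.39 and 11.20 in MKL1/2 shRNA cells, against 11.46 and 11.48 in control cells. FGG, the gamma chain, read 10.52 and 10.48 in MKL1/2 shRNA cells, against 10.48 and 10.43 in control cells. The groups overlapped for FGA and FGG, and FGB lay lower in both knockdown arrays without passing the test (limma adjusted p = 0.512). The 95% intervals of the differences ran from -0.38 to 0.18 for FGA, from -0.43 to 0.08 for FGB and from -0.18 to 0.27 for FGG, so a change of fibrinogen mRNA of the size seen for FGL1 lies outside all of them.

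Among the 12 clotting factors and cofactors, KLKB1 rose and F11, its neighbour, had the next smallest p. KLKB1 encodes prekallikrein, the precursor of the protease that frees bradykinin and activates factor XII. It read 5.40 and 5.16 in MKL1/2 shRNA cells, against 4.06 and 4.16 in control cells, a difference of 1.17 (SE 0.117, limma adjusted p = 0.0382). The control values were barely above the lower quartile of the probes on an array (3.99 to 4.02), and no fold is given because no background level is known. F11, which encodes factor XI, read 7.29 and 6.84 in MKL1/2 shRNA cells, against 6.36 and 6.55 in control cells. The groups did not overlap for F11, but its difference of 0.61 (SE 0.168) was not called (limma adjusted p = 0.211). The other contact factors lay the same way with smaller values: KNG1, the kininogen from which bradykinin is cut, differed by 0.42 (SE 0.181) and F12 by 0.28 (SE 0.122), neither of them called (limma adjusted p = 0.369 and 0.375).

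Prothrombin depended on the knockdown array. F2 read 8.96 and 7.96 in MKL1/2 shRNA cells, against 8.82 and 8.73 in control cells. Replicate 1 was above both controls and replicate 2 well below both, so the difference of -0.32 (SE 0.303, limma adjusted p = 0.706) averages values on both sides of the controls. F13B, the carrier subunit of factor XIII, read 4.62 and 3.94 in MKL1/2 shRNA cells, against 3.88 and 3.99 in control cells, with replicate 1 alone above the controls. Of the tissue factor route, F3, which encodes tissue factor, read 6.65 and 6.87 in MKL1/2 shRNA cells, against 6.83 and 6.83 in control cells, and F7 read 7.57 and 7.31 in MKL1/2 shRNA cells, against 7.45 and 7.35 in control cells. Neither gene separated the groups. F5, the cofactor of factor X, differed by 0.22, F10 by 0.18 and VWF, the platelet-binding carrier of factor VIII, by 0.18, and none was called. F9 lay between 2.11 and 2.40 on the 4 arrays, below the lower quartile of all probes on each. In 11 of the 12 genes of this group replicate 1 read higher than replicate 2, F3 being the exception. The median difference of the group was 0.37 in replicate 1 and 0.03 in replicate 2.

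**Figure D2:**
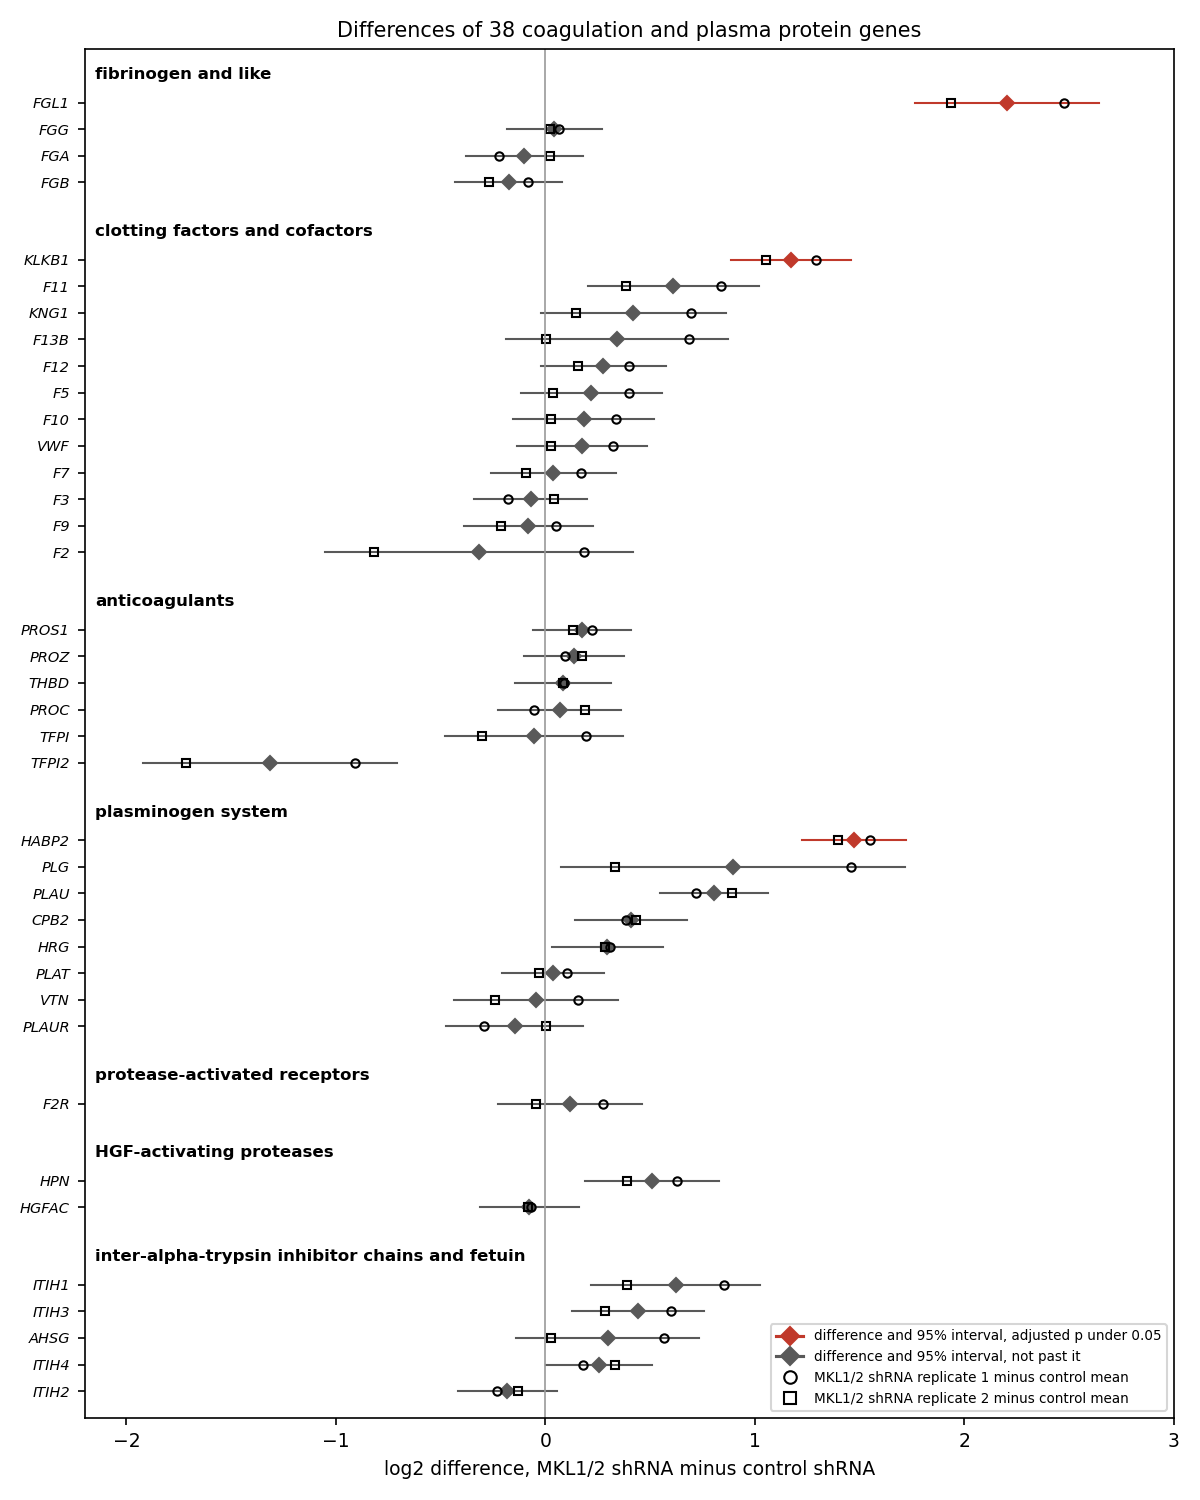
Log2 difference, MKL1/2 shRNA minus control shRNA, of the 38 measured genes by role, with diamonds for limma's estimate, lines for its 95% interval, and open circles and squares for MKL1/2 shRNA replicates 1 and 2 minus the control mean. Red marks an adjusted p under 0.05. FGL1 at 2.21, HABP2 at 1.47 and KLKB1 at 1.17 stand to the right, TFPI2 at -1.31 to the left, and the circle lies right of the square for 29 of the 38 genes.

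In the plasminogen group HABP2 rose, and 5 of the 8 genes were higher in both knockdown arrays than in both controls, against 22.5% of all genes tested. HABP2 encodes a plasma protease, also known as factor VII-activating protease, that can activate factor VII and the urokinase precursor. It read 9.18 and 9.03 in MKL1/2 shRNA cells, against 7.64 and 7.63 in control cells. The arrays of each group lay close together, and the difference of 1.47 (SE 0.102) or 2.78-fold had the smallest p of the list (limma adjusted p = 0.0159). PLAU, which encodes urokinase, read 7.88 and 8.06 in MKL1/2 shRNA cells, against 7.19 and 7.13 in control cells. Its groups stood apart by more than their spread, but the difference of 0.81 (SE 0.106) just missed the threshold (limma adjusted p = 0.0688). It was called after quantile normalization of the arrays (limma adjusted p = 0.0447). It also passed without MKL1/2 shRNA replicate 1 (0.0239) and without replicate 2 (0.03), where the spread comes from the control pair alone. The urokinase receptor gene PLAUR read 5.46 and 5.75 in MKL1/2 shRNA cells, against 5.66 and 5.84 in control cells, and PLAT, which encodes tissue plasminogen activator, read 5.81 and 5.67 in MKL1/2 shRNA cells, against 5.72 and 5.68 in control cells. Both overlapped between the groups.

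Plasminogen itself was uneven. PLG read 8.44 and 7.31 in MKL1/2 shRNA cells, against 6.89 and 7.07 in control cells. Both knockdown arrays were above both controls, replicate 1 by far more, and the difference of 0.90 (SE 0.338) was not called (limma adjusted p = 0.316). The 3 other probes that list PLG, all shared with the plasminogen-like genes and 2 of them with identical values, differed by 0.60 to 0.84, again with replicate 1 above replicate 2. CPB2, whose product slows fibrinolysis by trimming the plasminogen-binding ends of fibrin, read 9.40 and 9.45 in MKL1/2 shRNA cells, against 8.91 and 9.12 in control cells. Here the knockdown arrays were alike and the controls apart, with a difference of 0.41 (SE 0.11, limma adjusted p = 0.205). HRG, a plasma protein that binds plasminogen and heparin, differed by 0.30 (SE 0.109, limma adjusted p = 0.303). VTN, which encodes vitronectin, an adhesive protein of plasma and matrix, read 11.29 and 10.89 in MKL1/2 shRNA cells, against 11.02 and 11.25 in control cells, and overlapped. The median difference of the 8 genes was 0.35 in replicate 1 and 0.31 in replicate 2.

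TFPI2 stood apart from the other anticoagulant genes. It encodes a Kunitz-type inhibitor of plasmin and other proteases that is deposited in the matrix. TFPI2 read 6.61 and 5.80 in MKL1/2 shRNA cells, against 7.53 and 7.50 in control cells. Both knockdown arrays were below both controls, by 0.91 in replicate 1 and 1.72 in replicate 2 on the log2 scale, and the difference of -1.31 (SE 0.248) was not called (limma adjusted p = 0.128). It passed without MKL1/2 shRNA replicate 1 (limma adjusted p = 0.00458) and without replicate 2 (0.0178), but those fits take the spread from the control pair alone and leave out the gap between the knockdown arrays. Its relative TFPI, the inhibitor of factor X and of factor VII with tissue factor, read 8.24 and 7.75 in MKL1/2 shRNA cells, against 8.12 and 7.97 in control cells, and overlapped. PROS1, which encodes protein S, the cofactor of protein C, read 9.91 and 9.82 in MKL1/2 shRNA cells, against 9.67 and 9.71 in control cells, a difference of 0.18 (SE 0.096, limma adjusted p = 0.467). A second PROS1 probe differed by 0.12. PROC, which encodes protein C, differed by 0.07, PROZ, whose product is a cofactor in the inhibition of factor X, by 0.13, and THBD, the thrombin receptor thrombomodulin, by 0.09, with none called.

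The receptor and hepatocyte growth factor genes differed little apart from HPN. F2R, the thrombin receptor PAR1, read 8.25 and 7.93 in MKL1/2 shRNA cells, against 7.88 and 8.08 in control cells, and overlapped. HPN encodes hepsin, a membrane protease that activates the hepatocyte growth factor precursor. It read 6.82 and 6.58 in MKL1/2 shRNA cells, against 6.08 and 6.31 in control cells. Both knockdown arrays were above both controls, with a difference of 0.51 (SE 0.132, limma adjusted p = 0.193) that was not called. HGFAC, which encodes the plasma activator of the same precursor, read 6.13 and 6.12 in MKL1/2 shRNA cells, against 6.14 and 6.26 in control cells, a difference of -0.08 (SE 0.098, limma adjusted p = 0.786).

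Among the inter-alpha-trypsin inhibitor heavy chains, 3 neighbours read higher and the fourth, encoded elsewhere, did not. Some of these chains are transferred to hyaluronan in the matrix. ITIH1 read 5.82 and 5.36 in MKL1/2 shRNA cells, against 5.04 and 4.90 in control cells, a difference of 0.62 (SE 0.166, limma adjusted p = 0.202). ITIH3 read 5.51 and 5.19 in MKL1/2 shRNA cells, against 4.92 and 4.90 in control cells, a difference of 0.44 (SE 0.13, limma adjusted p = 0.224). Neither gene overlapped between the groups, and neither was called. ITIH4 differed by 0.26 (SE 0.104). These 3 neighbours are dim, and the alternative without the dimmest 40% of genes left all of them out. ITIH2 read 11.88 and 11.97 in MKL1/2 shRNA cells, against 12.13 and 12.08 in control cells, and so lay lower in both knockdown arrays (limma adjusted p = 0.458). AHSG, which encodes the mineral-binding plasma protein fetuin-A, read 11.16 and 10.62 in MKL1/2 shRNA cells, against 10.61 and 10.58 in control cells, with replicate 1 alone far above the controls.

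Several listed genes are neighbours on a chromosome, which allows a look at each run side by side. KLKB1 and F11 are adjacent in the RefSeq gene table and were both higher in each knockdown array, at 1.17 and 0.61. The genes on their outer sides, CYP4V2 and MTNR1A, differed by -0.16 and -0.15. ITIH1, ITIH3 and ITIH4 follow each other without another coding gene between them, and the gene before them, NEK4, differed by 0.11. AHSG, HRG and KNG1 lie together with FETUB, which encodes a second fetuin and differed by 0.36 (SE 0.114), between AHSG and HRG. All 4 differences of that run were above 0 and none was called, while those of the genes on the outer sides were -0.28 for DNAJB11 and 0.19 for EIF4A2. The run of FGB, FGA and FGG and that of F7, F10 and PROZ did not separate the groups as a whole. For the called genes that have no listed neighbour, HABP2 lies between TCF7L2 at 0.23 and NRAP at 0.09, and MTUS1, next to FGL1, differed by 0.26, with none of the 3 called. F2RL2, the gene next to F2R and itself a thrombin receptor gene, read 8.45 and 7.80 in MKL1/2 shRNA cells, against 8.98 and 9.10 in control cells, a difference of -0.92 (SE 0.209, limma adjusted p = 0.159), whereas F2R differed by 0.12.

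**Figure D3:**
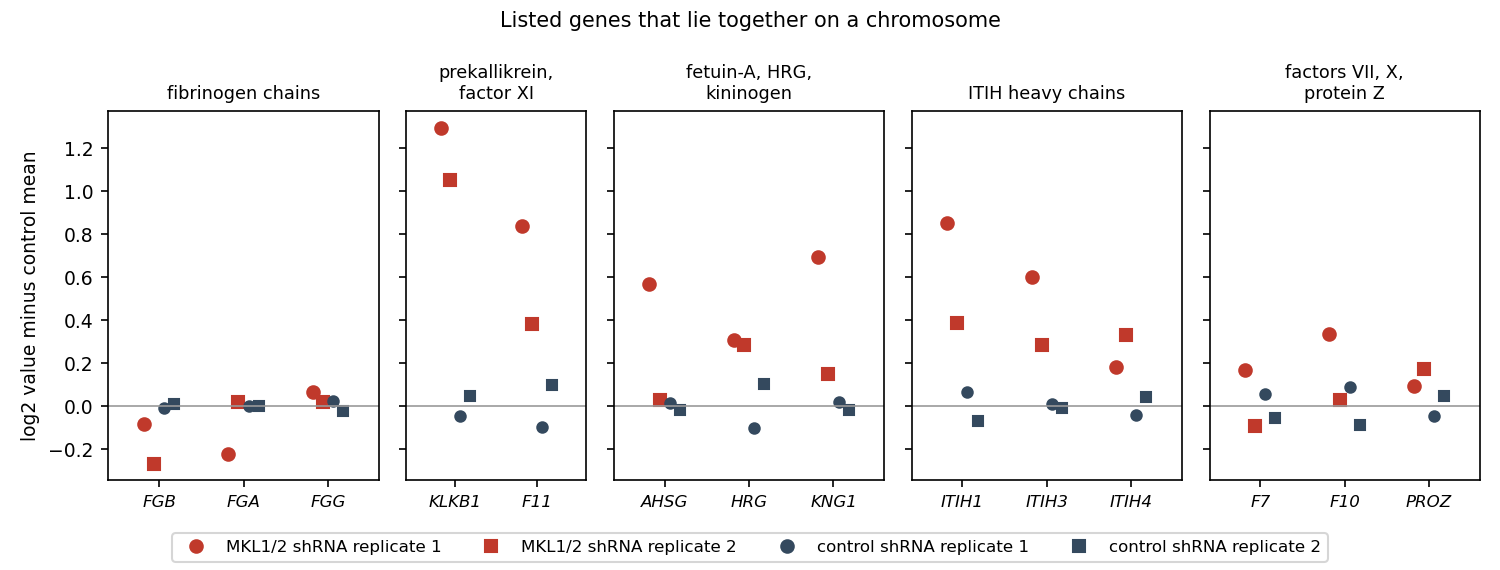
Log2 value minus the control mean on each of the 4 arrays for 5 runs of listed genes that lie together on a chromosome, drawn in chromosomal order with MKL1/2 shRNA in red and control shRNA in dark blue. The KLKB1 and F11 points of both knockdown arrays lie above the controls, as do those of ITIH1, ITIH3 and ITIH4, while the fibrinogen chains stay between -0.27 and 0.06.

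The knockdown arrays differed for these genes more than for most. Replicate 1 read higher than replicate 2 in 29 of the 38 genes, or 76.3%, against 52.2% of all genes tested, with a median of 0.24 for replicate 1 minus replicate 2. The median absolute difference between the knockdown arrays was 0.253 for the listed genes and 0.142 for all genes, and between the control arrays it was 0.0924 and 0.0912. Against the control mean, the median of the 38 genes was 0.25 in replicate 1 and 0.04 in replicate 2. Replicate 1 was above replicate 2 in 27 of 34 other plasma protein genes, in 16 of 32 coagulation genes outside the list and in 3 of 10 hepatocyte markers. ALB, AFP, TTR and TF are in both the plasma protein set and the marker set, and the differences between these sets were not tested. The hepatocyte markers' mean log2 value was 11.25 and 11.28 in MKL1/2 shRNA cells, against 11.36 and 11.32 in control cells. Endothelial markers averaged 4.95 and 4.77 in MKL1/2 shRNA cells, against 4.79 and 4.76 in control cells, and macrophage markers averaged 5.30 and 5.08 in MKL1/2 shRNA cells, against 5.08 and 5.10 in control cells. Stellate cell and fibroblast markers averaged 4.96 and 5.09 in MKL1/2 shRNA cells, against 5.01 and 5.06 in control cells, and megakaryocyte markers averaged 4.93 and 4.88 in MKL1/2 shRNA cells, against 4.88 and 4.87 in control cells. The part of these levels in the differences of the listed genes was not tested.

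**Figure D4:**
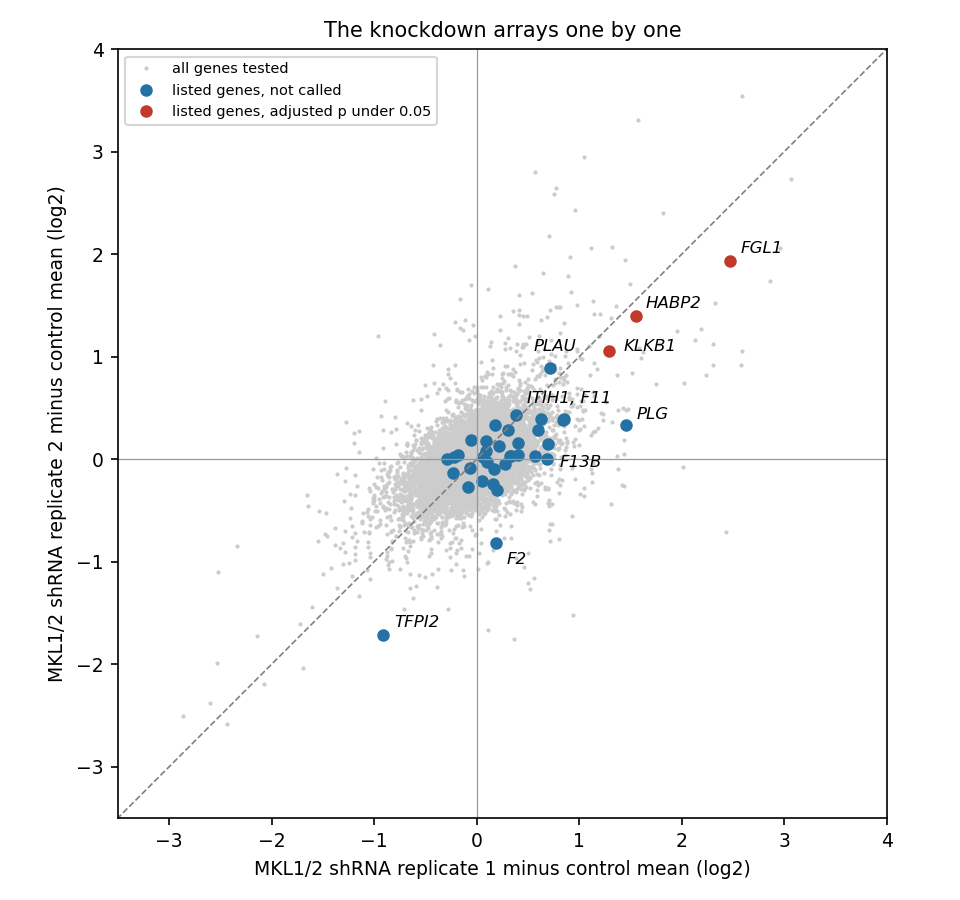
Each MKL1/2 shRNA array minus the control mean (log2), replicate 1 on the horizontal axis and replicate 2 on the vertical axis, for all genes tested (grey) and the listed genes (blue, and red where called). The dashed line marks equal values, both axes share the same control mean, and most listed genes lie below the line. PLG at 1.46 and 0.33, F13B at 0.68 and 0.0018, and F2 at 0.19 and -0.82 are farthest from it among the labelled genes with a positive replicate 1.

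Of 32 measured coagulation and fibrinolysis genes outside the list, none was called by limma, where 0.174% of all genes tested were called in either direction. At an unadjusted p under 0.05 in limma, 5 were higher, which is 15.6% of the set against 6.25% of all genes. At the same threshold 4 were lower, against 8.04% of all genes, and the median difference was 0.05. Those 4 were F2RL2 at -0.92, THBS1 at -0.62, SERPINA10 at -0.45 and FURIN at -0.41. ASGR1, a subunit of the liver receptor that clears desialylated glycoproteins and platelets, read 7.23 and 7.18 in MKL1/2 shRNA cells, against 6.32 and 6.39 in control cells, a difference of 0.85 that just missed the threshold (SE 0.095, limma adjusted p = 0.0508). Over the alternatives its adjusted p lay between 0.021 and 0.898, the highest without control replicate 1. TPST2, which sulfates tyrosines of secreted proteins, differed by 0.68 (SE 0.11), and C4BPB, a chain of the complement regulator that binds protein S, by 0.57 (SE 0.104). SERPIND1, which encodes heparin cofactor II, an inhibitor of thrombin, differed by 0.60 (SE 0.108). Of the vitamin K enzymes, VKORC1 differed by 0.02, and GGCX, the carboxylase of the vitamin K-dependent factors, read 8.68 and 9.44 in MKL1/2 shRNA cells, against 9.16 and 9.12 in control cells. SERPINB2 and PDIA3 were not analysed here.

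Of 34 measured plasma protein genes of other kinds, none was called by limma, where 0.174% of all genes tested were. At an unadjusted limma p under 0.05, 7 were higher, which is 20.6% of the set against 6.25% of all genes. Only AFP was lower (-0.31), against 8.04% of all genes, and the median difference was 0.12. PON1, the paraoxonase of high-density lipoprotein, differed by 0.64 (SE 0.103), HAMP, the iron hormone hepcidin, by 1.10 (SE 0.182), CP, the copper protein ceruloplasmin, by 0.81 (SE 0.163), and CFB, complement factor B, by 0.83 (SE 0.238). Their limma adjusted p-values, the smallest of the set, lay between 0.098 and 0.218. The largest difference of the set was that of AFM, which encodes the plasma protein afamin, at 1.67 (SE 0.533, limma adjusted p = 0.253). AFM read 4.86 and 6.70 in MKL1/2 shRNA cells, against 4.05 and 4.17 in control cells, with replicate 2 far above replicate 1. AMBP encodes bikunin, the light chain that some of the ITIH heavy chains are joined to. It read 11.70 and 11.53 in MKL1/2 shRNA cells, against 11.49 and 11.38 in control cells, a difference of 0.18 (SE 0.109, limma adjusted p = 0.51). The 0 calls in this set and in the 32 coagulation genes stand beside 3 of 38 in the list, and the difference between the sets was not tested.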

How the data were processed

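Total RNA of HuH7 cells was labelled with biotin and read on 1-colour whole-transcript arrays, 1 array per sample. The authors deposited log2 expression values for 33297 probes; per the submitters' processing notes Partek was used, and how the background was corrected and probes were normalized or summarized is not given. Their range of 1.03 to 13.65 was taken to show a log2 scale. Array medians lay between 5.68 and 5.73. No detection calls were used, and the number of arrays limits the precision.

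Probes were named from the platform annotation, and 19460 of them list 1 gene symbol. Symbols were updated through Entrez identifiers (19429 found in the RefSeq gene table of GRCh38.p14, used for names and gene order), and the probe with the highest mean was kept, giving 18417 genes. A model with group alone was fitted over all genes with limma 3.58.1 (R 4.3.3) and tested two-sided after eBayes, with Benjamini-Hochberg adjustment and a threshold of 0.05. There were 2 residual and 4.12 prior degrees of freedom, and the 95% intervals use both. The test was run on simulated arrays with equal spread in both groups. The wider spread between the MKL1/2 shRNA arrays was not part of that check. The members, the lists and the tests were chosen with earlier results of these data known. Every listed gene was accounted for, with full values for called genes and for the 2 with the smallest p in each role group, and, outside the list, the 4 with the smallest p of each set are named; other values were added after they were seen. The alternatives left out dim genes, renormalized the arrays, averaged probes, changed the variance moderation, added a replicate block and left out each array. At most 174 probes had identical values in any pair of arrays, so no array was a copy.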

Additional observations from a re-analysis of the deposited data

How the results depend on the processing

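The median difference of the listed genes was 0.13 to 0.18 under the 7 alternatives that kept all 4 arrays, and 0.04 to 0.25 with an array left out. No listed gene changed direction under those 7 alternatives. FGL1 and HABP2 were called under each of these 7, and KLKB1 under 6, since the filter on the dimmest 40% of genes removed it and 10 other listed genes from the test. The titles number the replicates 1 and 2 in both groups. The numbers were not taken to pair the arrays, since no label says that a number marks a shared day. The correlation over genes of replicate 1 minus replicate 2 between the groups, computed as a check, was -0.067. With the number as a replicate block, 93 genes were called over all genes tested, against 32 without it, and 4 listed genes, against 3; TFPI2 was the 1 called lower (adjusted p = 0.044), and 1 gene of each outside set was called. Robust eBayes gave 51 calls over all genes. Of the other coagulation genes, 1 was called, against 0, with the filter, quantile normalization, averaged probes, trend and robust eBayes each; median centring gave 0.

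Leaving out each array in turn, which takes the spread from the other group's 2 arrays alone, gave 0 to 781 calls over all genes, 0 to 12 among the listed genes (0 to 11 higher and 0 to 2 lower), 0 to 6 among the other coagulation genes and 0 to 10 among the other plasma protein genes. The MRTFA probe differed by -0.98 to -0.88 and was not called without control replicate 1 (adjusted p = 0.732) or control replicate 2 (0.638). Uncalled genes that changed direction in these sets ranged from -0.22 to 0.021 for FGA, -0.82 to 0.19 for F2, -0.18 to 0.040 for F3, -0.093 to 0.17 for F7, -0.21 to 0.050 for F9, -0.053 to 0.19 for PROC, -0.30 to 0.20 for TFPI, -0.29 to 0.0009 for PLAUR, -0.029 to 0.10 for PLAT, -0.24 to 0.16 for VTN and -0.043 to 0.28 for F2R. The causes were not tested. With no background level, differences of dim genes such as F9, F13B and KLKB1 are the least certain.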
